A study of Mus musculus with 2 samples.

Results

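The genes described here encode the ubiquitin-conjugating (E2) enzymes and the proteasome of the mouse, and were taken as every protein-coding gene of the GENCODE M21 annotation whose symbol begins with Ube2 or is Psma, Psmb, Psmc, Psmd, Psme, Psmf or Psmg followed by a digit. The rule found 87 of 21938 protein-coding genes, 37 of them Ube2 genes, 49 proteasome genes and 1, Psmc3ip, a meiotic recombination partner whose symbol begins like that of a subunit. Ube2cbp, which encodes an E2-binding protein and not an E2 enzyme, is counted with the Ube2 genes by its symbol. The assay was ATAC-seq, where a transposase cuts and tags DNA mainly where the chromatin is open. It was run on primary erythroblasts, red cell precursors that still have a nucleus, from adult male C57BL/6J mice 5 to 6 weeks old. The series held 1 group of 2 replicates, each started from 50000 cells, with no treatment, mutation or control group in the labels. Both replicates had a biosample entry of their own but the same donor identifier, so the spread between them may be technical, and sequencing instruments (2 models) are named for replicate 2 alone. The values are lists of open intervals in mm10 coordinates, 17777 in replicate 1 and 18837 in replicate 2, and they hold no read counts, so library depth is unknown. A gene was called open when the thresholded list of each replicate had an interval within 1 kb of any of its annotated transcription start sites. The erythroid markers were open in 9 of 9 cases, Gata1, Klf1 and the globin genes Hbb-bs and Hba-a1 among them, and the markers of other blood and liver cells in 0 of 9 cases, also on the less strict lists.

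Ubiquitin is attached to proteins by a relay in which an E1 enzyme activates it, an E2 enzyme carries it and an E3 ligase chooses the substrate. Chains of ubiquitin send the substrate to the proteasome, a barrel of alpha and beta rings (the 20S core) capped by the 19S particle, whose ATPases unfold the substrate and whose other subunits bind and remove the ubiquitin. Maturing red cells use this system to strip their proteome down to mostly hemoglobin, and the E2 enzymes Ube2h and Ube2o are known for a part in that process.

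Most of these genes had open promoters in erythroblasts. Of the 87, 74 were open, which is 85.1% (95% Wilson interval 76.1% to 91.1%, covering counting error only), against 41.4% of all protein-coding genes. None of the 87 had an interval in 1 replicate only, a case that was rare among all protein-coding genes as well (470, or 2.14%). The proteasome genes were open in 45 of 49 cases (91.8%, interval 80.8% to 96.8%) and the Ube2 genes in 28 of 37 (75.7%, interval 59.9% to 86.6%). Every 19S ATPase (6 of 6), 19S non-ATPase subunit (11 of 11), assembly chaperone (7 of 7) and E2 enzyme of the cell cycle and DNA repair list (8 of 8) was open. The promoters not called open, named closed from here on, lay among the 20S alpha subunits (1 of 8), the 20S beta subunits (2 of 11), the activators and inhibitor (1 of 6) and the other Ube2 genes (9 of 29). With 1 group of samples and a list of genes chosen by name, these shares are descriptions set beside the same count over all genes, and no test was made.

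**Figure D1:**
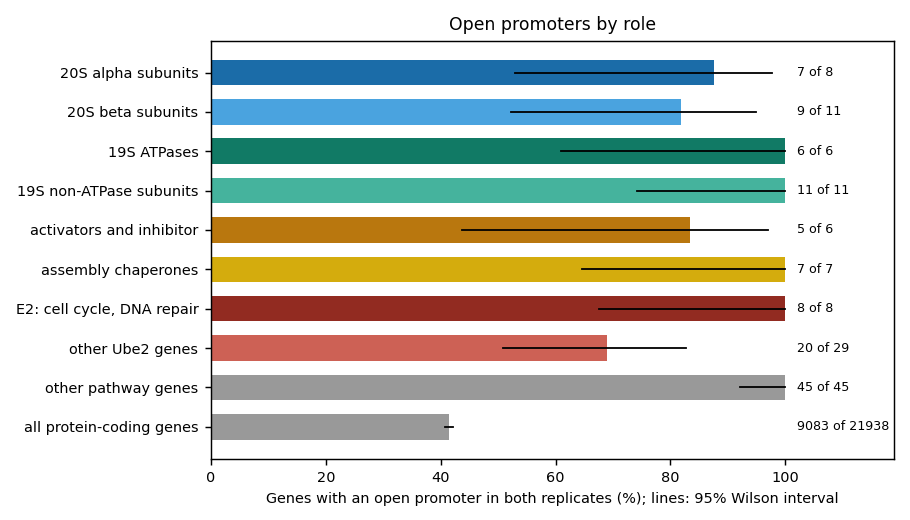
Bars give the percent of genes with an open promoter in both replicates for each role group, for 45 other pathway genes and for all protein-coding genes, with lines for the 95% Wilson interval. Groups of proteasome and Ube2 genes sit between 69.0% (20 of 29 other Ube2 genes) and 100%, and all protein-coding genes at 41.4%.

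The plot of open promoters by role shows that the intervals of the small groups are wide. The lowest bound of the drawn groups was 43.6%, for the activators and inhibitor. The intervals cover counting error only and are not a test against the share of all genes. Psmc3ip, the only gene outside these groups, was open and is not drawn. The strength of a promoter was read as the fold enrichment of its strongest interval, a value of the authors' peak caller, and as the percentile of that value within the list of the same replicate, where 100 is the strongest interval. The 74 open members had a median enrichment of 10.1 in replicate 1 and 9.83 in replicate 2, against 9.73 and 9.86 for all open protein-coding genes. Their median percentile, taken as the mean of both replicates, was 74.6, against 71.3 for all open protein-coding genes. The direction of this gap was not the same in both replicates, with 74.3 for the members against 70.8 in replicate 1 and 71.9 against 72.1 in replicate 2. Above the percentile of 80 stood 29 members (39.2%), against 36.2% of all open protein-coding genes, and below the percentile of 20 stood 4 members (5.41%), against 4.91%. Open promoters were more frequent among these genes than among all genes, while the open ones were about as strong as other open promoters. The deposited values of the replicates lay about as close together for the members as for other open genes. The median SD was 0.310 fold, against 0.320 fold for all open protein-coding genes. Any difference of scale between the lists is part of this SD and of those given below. The highest SD of a member was 1.13 fold, at Psmd3.

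The position of the signal was sharp. The strongest summit lay within 100 bp of an annotated start in 60 of 74 open members (81.1%), against 68.8% of all open protein-coding genes. Between replicates, the summit shifted by a median of 4 bp for the members, against 7 bp for all open protein-coding genes, and by no more than 10 bp in 52 members (70.3%), against 67.8%. The strongest interval was a median of 964 bp wide in replicate 1 and 984.5 bp in replicate 2 for the members, against 897 and 887 bp for all open protein-coding genes. In 13 members (17.6%) this interval also lay within 1 kb of a start of another protein-coding gene, against 26.9% of all open genes. The proteasome genes, with 11 of 45 (24.4%), lay near that share, and the Ube2 genes, with 2 of 28 (7.14%), below it. Both genes of such a pair cannot be told apart. Among these pairs were Psmb9 with Tap1, Psmc2 with Dnajc2, Psmd13 with Sirt3, Psma2 with Mrpl32 and Psme2 with Rnf31. No interval was shared by 2 members.

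The letters at the promoter summits were read in windows of 151 bp, on both strands, for 12 short motifs. The ETS motif CCGGAAG was found in the window of 24 of 74 members (32.4%, interval 22.9% to 43.7%) in replicate 1, against 17.3% of the 7909 distinct promoter windows of all open genes, and in 23 members (31.1%) in replicate 2, against 17.5%. The YY1 motif AAGATGGCG was in 7 members (9.46%, interval 4.66% to 18.3%), against 2.93%. A match describes letters in a window and does not show that a factor binds there. In both replicates 22 members had the ETS letters. They were 18 Psm genes, from the 45 open proteasome genes and Psmc3ip, and 4 of the 28 open Ube2 genes. The higher ETS share of the members thus lay with the Psm genes and was not seen in the Ube2 genes. Psmb7, a catalytic beta subunit, Psmd7, the partner of the deubiquitinating subunit of the 19S lid, and Ube2v2, an inactive E2 variant that helps Ube2n build signalling chains, had both motifs in both replicates. Their matches are shown with 10 bases on each side because these are the members in which both motifs meet, and they include the strongest Psm promoter and the strongest promoter of all members. They are written 5′ to 3′ on the strand of the gene (minus for all of them), from the RefSeq sequence of GRCm38.p6, the same build as mm10, with the motif in capitals. For Psmb7 they span chr2:38643949-38643975 and chr2:38643887-38643915, for Psmd7 chr8:107588439-107588465 and chr8:107588518-107588546, and for Ube2v2 chr16:15594513-15594539 and chr16:15594460-15594488. Whether these matches lie in exons was not read.
Psmb7 ETS match: tctcgcggcgCCGGAAGtgctaagttc
Psmb7 YY1 match: ctttcttggcAAGATGGCGgctgtgtcgg
Psmd7 ETS match: ggcggtcaaaCCGGAAGgggaggtgct
Psmd7 YY1 match: tccctttctcAAGATGGCGcccctggcga
Ube2v2 ETS match: caacgcgctgCCGGAAGtgacgttgac
Ube2v2 YY1 match: gtagcaggagAAGATGGCGgtctccacag

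The antioxidant-type element TGACNNNGC is the known binding site of NFE2-like factors, among them Nfe2l1, which raises proteasome genes when the proteasome is short, and Nfe2, the founding erythroid member of the family. It was found in 10 members in either replicate (13.5%, interval 7.51% to 23.1%), against 10.1% of all promoter windows in replicate 2. The 10 members were the same in both replicates, 7 Psm and 3 Ube2 genes, and 4 of them were 20S beta subunits. Those 4 are shown because the beta subunits hold the active sites of the proteasome, again 5′ to 3′ on the strand of the gene, from GRCm38.p6, with the element in capitals. The run of Psmb2 spans chr4:126677619-126677647 on the plus strand and touches an exon, that of Psmb5 spans chr14:54618023-54618087 on the minus strand, that of Psmb6 spans chr11:70525303-70525366 on the plus strand and that of Psmb10 spans chr8:105937040-105937138 on the minus strand, the last 3 outside exons.
Psmb2: gccgcgccagTGACTGGGCcgtcgcgcgt
Psmb5: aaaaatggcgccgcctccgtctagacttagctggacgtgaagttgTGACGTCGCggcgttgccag
Psmb6: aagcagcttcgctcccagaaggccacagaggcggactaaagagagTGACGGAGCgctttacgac
Psmb10: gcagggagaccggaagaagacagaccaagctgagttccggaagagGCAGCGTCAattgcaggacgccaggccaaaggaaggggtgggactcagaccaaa

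The remaining motifs were as frequent or less frequent in the members' windows than in all windows, or rare in both. The GC box GGGCGG stood in 39 members (52.7%) against 58.9%, the CCAAT box in 21 (28.4%) against 34.5%, and the NRF1 motif in 7 (9.46%) against 8.94%. The KLF letters CCACACCC or CCCCACCC stood in 5 members (6.76%) against 8.74%, the cyclic AMP element TGACGTCA in 3 (4.05%) against 3.62%, and the cell cycle element TTTGAA in 3 (4.05%) against 3.33%. The erythroid GATA letters AGATAA or TGATAA stood in 2 members (2.70%, interval 0.744% to 9.33%), against 5.70%, and only Psmf1 had them in both replicates. The spaced pair of CTG and GATA, which can overlap a GATA match, stood in 4 members (5.41%) against 3.39%, and the heat shock element in 1 member (1.35%) against 0.0885%, which was Ube2g2 in both replicates.

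**Figure D2:**
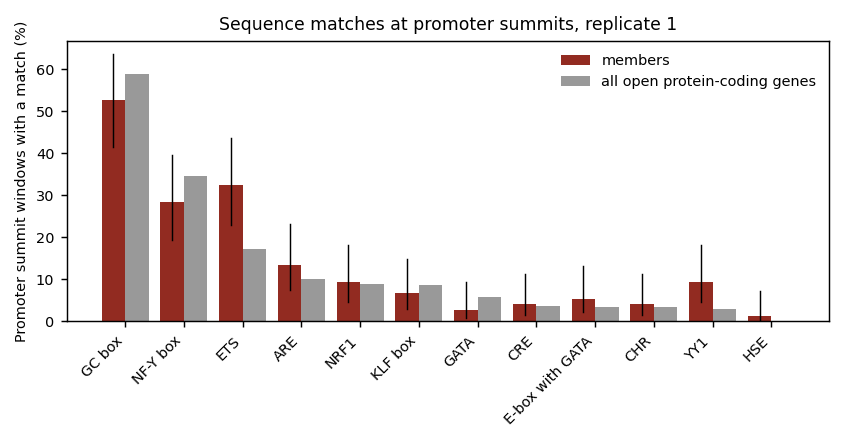
Bars give the percent of promoter summit windows with a match to each of 12 motifs in replicate 1, for 74 open members (red, with 95% Wilson intervals) and for 7909 windows of all open protein-coding genes (grey). The members' bar is above the other for the ETS motif (32.4% against 17.3%) and the YY1 motif (9.46% against 2.93%), and the GATA bar is low in both (2.70% against 5.70%).

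In the plot of promoter motifs, the members' interval leaves out the value of all windows for the ETS, YY1 and rare heat shock motifs. The intervals cover counting error only, and the 12 motifs were chosen with earlier results of these data known. This describes the plot and is not a test.

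The 20S core was open at 7 of 8 alpha genes and 9 of 11 beta genes. Psma6, an alpha ring subunit, was enriched 13.8 fold in replicate 1 and 13.5 fold in replicate 2 (13.7 ± 0.242, mean ± SD, n = 2, the form used for all values that follow), and Psma2 had 12.6 and 12.5 (12.6 ± 0.0629). These were the strongest alpha promoters, and the replicates of each differed by less than the gap to the weakest, Psma7, at 7.98 and 9.20 (8.59 ± 0.867). The summit of Psma6 lay 14554 bp downstream of the outermost annotated 5′ end, at an internal start site, and no interval lay within 1 kb of the outermost end. Psma8, the alpha subunit of the testis proteasome, had no interval, also on the less strict lists, and the nearest thresholded interval was 23257 bp away in replicate 1 and 22759 bp in replicate 2.

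Among the beta genes the 3 constitutive catalytic subunits had the highest means. Psmb6 had 13.9 and 13.7 (13.8 ± 0.116), Psmb7 had 13.1 and 12.8 (13.0 ± 0.169) and Psmb5 had 11.9 and 12.6 (12.3 ± 0.505), whose values overlap those of the structural subunit Psmb4 (11.1 and 12.2). The immunoproteasome subunits, which replace them in cells exposed to interferon, were lower or closed. Psmb10 had 9.65 and 9.40 (9.52 ± 0.180) and Psmb9, which shares its interval with the peptide transporter gene Tap1, had 7.50 and 8.46 (7.98 ± 0.677), the lowest open beta promoter. Psmb8, a neighbour of Psmb9 on chromosome 17, was closed, with the nearest interval 4999 bp away in replicate 1 and 4996 bp in replicate 2. Psmb11, the beta subunit of the thymus, was closed as well, with the nearest thresholded interval at 2921 and 3025 bp and a less strict interval of 2.92 fold in replicate 2 only.

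The 19S genes had the highest median percentiles of the proteasome groups. The median percentile was 88.5 for the 11 non-ATPase subunits and 81.2 for the 6 ATPases, against 71.3 for all open protein-coding genes. Of the non-ATPase genes 8 of 11 (72.7%) stood above the percentile of 80, against 36.2% of all open genes. Psmd7 had 15.6 in both replicates (15.6 ± 0.00181) and Psmd11, a lid subunit, had 14.4 and 14.2 (14.3 ± 0.190). Both belong to the lid that removes ubiquitin from the substrate. Psmd1, a large scaffold subunit of the base, had the lowest mean, from 8.60 and 8.83 (8.72 ± 0.165), values that lay within those of Psmd3 (9.64 and 8.04) and Psmd13 (9.27 and 8.34). Psmc4 had 15.0 and 14.6 (14.8 ± 0.275), Psmc3 had 13.0 and 12.5 (12.7 ± 0.335) and Psmc2, whose interval also serves the start of Dnajc2, had 7.23 and 8.68 (7.96 ± 1.02). These 3 are ATPases of the ring that pulls substrates into the core.

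The alternative caps and the helpers were weaker. Psme4, the activator that caps the core without ATP, had 10.7 and 12.2 (11.4 ± 1.11), and Psme2, a subunit of the interferon-induced activator, had 8.09 and 8.21 (8.15 ± 0.0838) in an interval shared with Rnf31. Psme1, the partner of Psme2, had 6.14 and 6.34 (6.24 ± 0.141). Psmf1, the proteasome inhibitor, had 4.70 and 4.36 (4.53 ± 0.238), the lowest proteasome promoter. The median percentile of this group was 42.6, and Psme2b, a copy of Psme2, was closed, its nearest interval 43897 and 43900 bp away.

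Of the assembly chaperones, which build the alpha ring or the base and then leave, Psmg4 had 11.4 and 11.2 (11.3 ± 0.142) and Psmg1 had 10.5 and 11.1 (10.8 ± 0.406). Psmg2 was the lowest at 6.18 and 6.34 (6.26 ± 0.114), in an interval shared with Cep76. The median percentile of the 7 was 63.0. In Psmd5 and Psmd9, base chaperones both, the interval lay at an internal start, 3989 and 58814 bp from the outermost 5′ end, and both would count as closed if only that end were read.

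**Figure D3:**
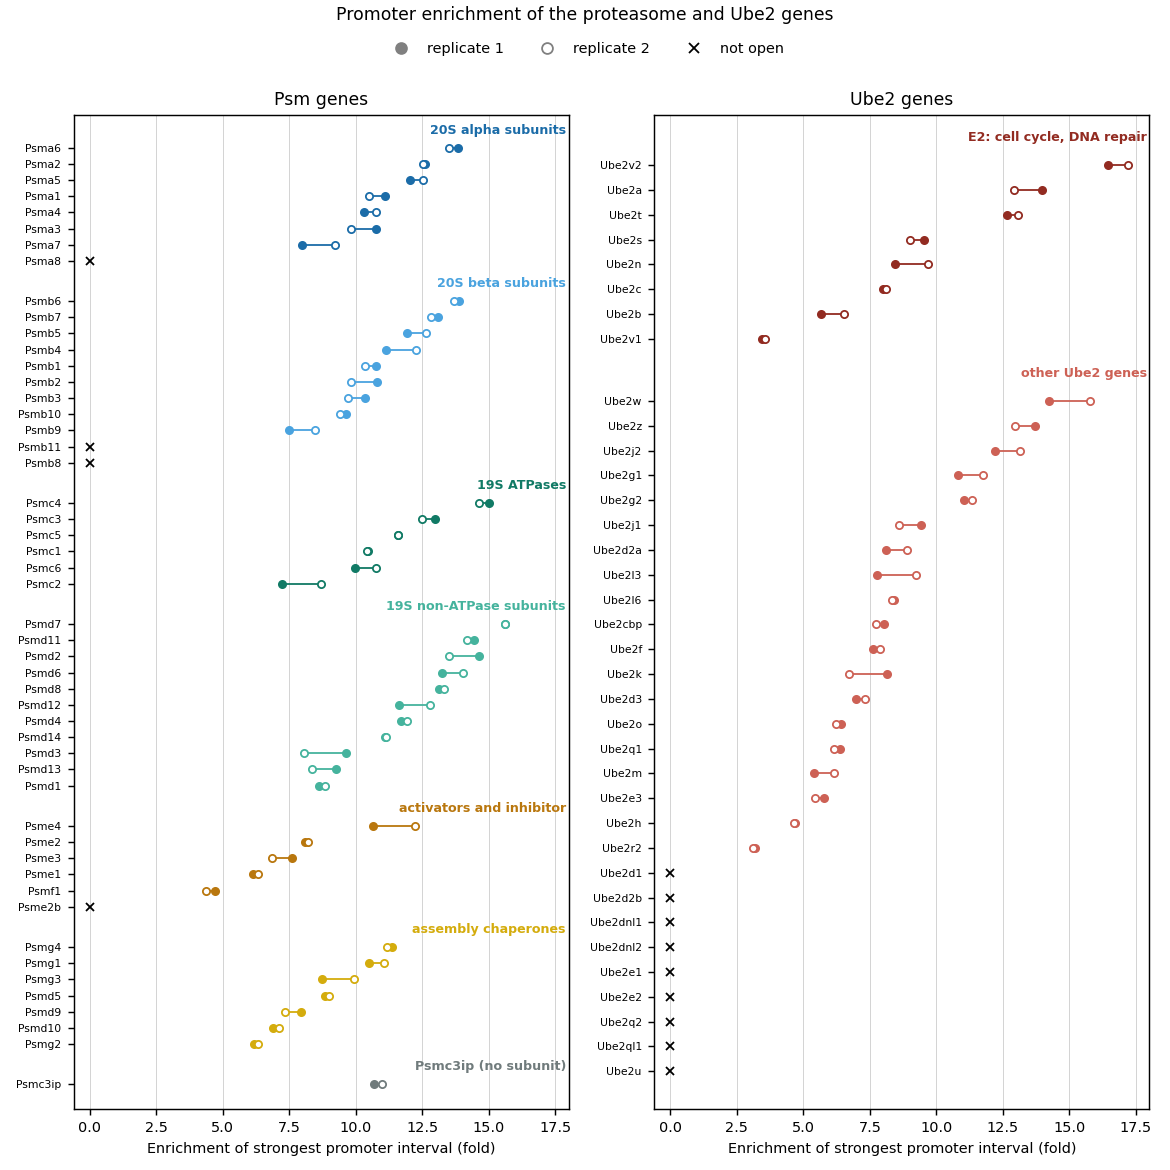
Each row is a gene (1 open Ube2 gene is left out), grouped by role, with the enrichment of its strongest promoter interval in fold on the x axis for replicate 1 (filled) and replicate 2 (open circle); crosses at 0 mark the 13 genes that were not open. The 19S non-ATPase genes sit between 8.04 and 15.6 fold, and the Ube2 genes span the widest range, between 3.11 fold at Ube2r2 and 17.2 fold at Ube2v2.

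The Ube2 genes spread more widely than the proteasome genes, as the plot of promoter enrichment by gene shows. The median percentile was 54.9 for the 28 open Ube2 genes and 78.0 for the 45 open proteasome genes, and 8 Ube2 genes (28.6%) stood above the percentile of 80, against 20 proteasome genes (44.4%). Ube2v2 had the highest value of all members, 16.4 and 17.2 (16.8 ± 0.542), and its close relative Ube2v1 had one of the lowest, 3.46 and 3.54 (3.50 ± 0.0583). Both are catalytically inactive partners of Ube2n, whose own promoter had 8.46 and 9.68 (9.07 ± 0.863). Ube2a, the E2 of histone and DNA damage ubiquitination, had 14.0 and 12.9 (13.4 ± 0.765). Ube2t, the E2 of the Fanconi anemia pathway of DNA crosslink repair, had 12.7 and 13.1 (12.9 ± 0.296). The E2 enzymes of the anaphase promoting complex, which ends mitosis, were near the middle: Ube2c, which starts the chain, had 7.99 and 8.10 (8.04 ± 0.0738), and Ube2s, which extends it, had 9.54 and 9.01 (9.28 ± 0.377).

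Among the other E2 genes, Ube2w, which tags the amino terminus of proteins, had 14.2 and 15.8 (15.0 ± 1.09), and Ube2z, which works with the E1 enzyme Uba6, had 13.7 and 13.0 (13.3 ± 0.529). Ube2r2, an E2 of the cullin ligases, had the lowest value of all open members, 3.20 and 3.11 (3.15 ± 0.0639), and was also the member nearest to the limit of the rule. Its interval lay 116 bp from a start in replicate 1 and 736 bp in replicate 2, and a window of 500 bp lost it. Ube2h and Ube2o, the E2 enzymes with a known part in red cell maturation, were both open and in the lower part of the range. Ube2h, the E2 of the ligase complex that contains Maea, had 4.67 and 4.63 (4.65 ± 0.0266), a mean percentile of 10.6. Ube2o, which clears ribosomal proteins from reticulocytes, had 6.42 and 6.21 (6.32 ± 0.149), a mean percentile of 30.2. The Ube2o value is that of the strongest of 3 promoter intervals in replicate 1 and of 4 in replicate 2. In replicate 1 the summit of this interval lay 1248 bp downstream of the 5′ end, so the interval reached the 1 kb window but its summit did not. Ube2l6, the E2 for the interferon-induced modifier ISG15, had 8.39 and 8.33 (8.36 ± 0.0405), a mean percentile of 56.7.

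Of the 13 members that were not open, 4 Ube2 genes had CpG-rich starts. Ube2d1, Ube2e1, Ube2q2 and Ube2ql1 had an observed to expected CpG ratio of 0.855, 0.846, 0.836 and 0.893 within 500 bp of the 5′ end, above the median of 0.772 for the open members and 0.748 for all open protein-coding genes. Ube2q2 was the member just outside the rule: the less strict lists had an interval of 3.78 fold in replicate 1 and 4.05 fold in replicate 2 within 1 kb of a start, and the thresholded list made from both replicates had one of 4.35 fold. For Ube2d1, a general-purpose E2 that works with many ligases, the nearest thresholded interval lay 18462 and 18450 bp away, and for Ube2e1, of a related class, 55745 and 55740 bp. The relatives of these genes were open, Ube2d3 at 6.97 and 7.31 (7.14 ± 0.235), Ube2d2a at 8.11 and 8.91 (8.51 ± 0.567) and Ube2e3 at 5.78 and 5.45 (5.62 ± 0.237), and Ube2e2 was closed with the nearest interval 325695 and 325690 bp away. The rest were Ube2u and the gene copies Ube2d2b, Ube2dnl1 and Ube2dnl2, besides Psma8, Psmb8, Psmb11 and Psme2b above. Ube2dnl1 and Ube2dnl2, on chromosome X, lay 1719325 and 1721895 bp from the nearest interval in replicate 1. In copies that closely resemble another gene, reads may not be placed uniquely, and their part in these calls was not tested. Of the 13, 10 had no interval within 1 kb even on the less strict lists, Psmb11 and Ube2d2b had one in replicate 2 only, and Ube2q2 had one in both. The median CpG ratio of the closed members was 0.563, against 0.286 for all closed protein-coding genes.

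Distal open sites, found in both replicates and lying wholly over 1 kb from any annotated start, were counted within 50 kb of the outermost 5′ end of each gene. At least 1 such site was found around 45 of the 87 members (51.7%), against 30% of all protein-coding genes and 46.8% of the open ones. Around 13 members (14.9%) there were 3 or more, against 6.99% of all protein-coding genes and 11.6% of the open ones. The mean was 1.16 sites per member, against 0.573 for all protein-coding genes and 0.921 for open ones, so the members lay nearer to the open genes than to all genes. The 9 erythroid markers were placed otherwise, with a mean of 3.22 sites, 3 or more sites around 5 of them, and weaker promoters (median percentile 24.0). The counts of 0, 1 and 2 sites were found in 42, 19 and 13 members.

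**Figure D4:**
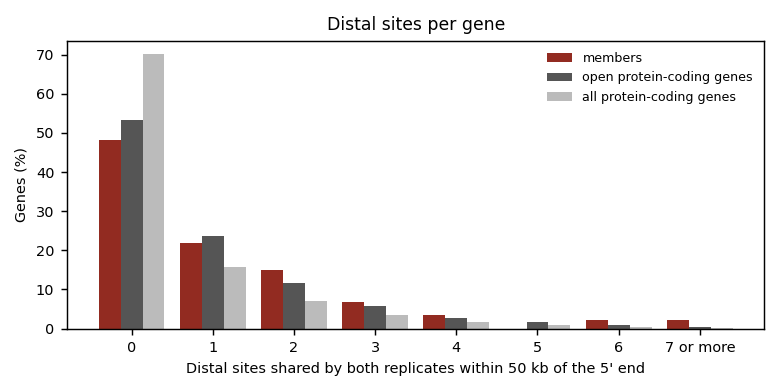
Bars give the percent of genes with each number of distal sites shared by both replicates within 50 kb, for 87 members (red), open protein-coding genes (dark grey) and all protein-coding genes (light grey). No site was found around 48.3% of the members, 53.2% of open genes and 70.0% of all genes.

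The histogram of distal sites per gene places most members at 0 or 1 site, as it does most open genes. In all there were 99 distinct sites around members, of 6105 distal sites in the series, forming 101 pairs of site and gene because 2 sites lay within reach of both Psmb5 and Psmb11. Of the 101 pairs, 59 lay in an intron of some gene, 33 were intergenic and 9 lay in an exon. The site was inside the member itself in 20 pairs, and the member was the coding gene with the nearest 5′ end in 41 pairs (40.6%). The sites around members had a lower median enrichment than distal sites in general, 6.40 in replicate 1 and 6.42 in replicate 2, against 7.20 and 7.32 for all distal sites. A GATA match lay within 75 bp of the summit in 31 of the 99 sites (31.3%, interval 23.0% to 41.0%), against 38.1% of all distal sites, with the same counts at the summits of replicate 2. The share of sites with erythroid GATA letters was thus not above that of distal sites elsewhere, and the place of a site does not show whether it acts on the member.

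The 13 members with 3 or more distal sites had 56 between them, 19 with a GATA match and 19 for which the member was the nearest gene. At the summits of replicate 1, 4 of the 13 had a site with both properties, the E2 genes Ube2c, Ube2l6, Ube2o and Ube2r2. Members with fewer than 3 sites that had such a site included the proteasome genes Psmc3, Psmd10 and Psmg1. For the 4 E2 genes, and for Ube2h because of its known role in red cells, the summit window of the strongest such site in replicate 1 is shown. The GATA letters are in capitals on either strand (TTATCT and TTATCA are AGATAA and TGATAA read on the other strand). The windows are 151 bases of GRCm38.p6, 5′ to 3′ on the plus strand. That of Ube2h spans chr6:30307802-30307952, 3.338 kb upstream of its 5′ end in an intron of 1700095J07Rik, with an enrichment of 6.16 in replicate 1 and 6.67 in replicate 2. That of Ube2c spans chr2:164760170-164760320, 9.653 kb upstream in an intron of Dnttip1, with 5.30 and 5.29. That of Ube2l6 spans chr2:84793261-84793411, 5.492 kb upstream and intergenic, with 6.45 and 6.15. These 3 windows lie upstream of their gene and the next 2 inside it. That of Ube2o spans chr11:116571979-116572129, 9.393 kb downstream in an intron of Ube2o itself, with 4.15 and 4.16. That of Ube2r2 spans chr4:41161319-41161469, 25.651 kb downstream in an intron of Ube2r2, with 5.76 and 6.13.
Ube2h: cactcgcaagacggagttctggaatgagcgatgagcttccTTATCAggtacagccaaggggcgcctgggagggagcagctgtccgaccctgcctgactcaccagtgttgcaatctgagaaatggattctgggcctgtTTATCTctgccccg
Ube2c: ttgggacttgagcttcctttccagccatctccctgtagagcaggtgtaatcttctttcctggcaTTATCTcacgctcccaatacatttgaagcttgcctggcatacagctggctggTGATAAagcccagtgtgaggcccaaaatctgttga
Ube2l6: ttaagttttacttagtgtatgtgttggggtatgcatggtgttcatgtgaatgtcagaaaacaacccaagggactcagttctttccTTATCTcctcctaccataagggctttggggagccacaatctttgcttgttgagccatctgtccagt
Ube2o: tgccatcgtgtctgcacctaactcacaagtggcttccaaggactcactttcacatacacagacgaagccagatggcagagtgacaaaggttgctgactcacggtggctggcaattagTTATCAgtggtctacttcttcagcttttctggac
Ube2r2: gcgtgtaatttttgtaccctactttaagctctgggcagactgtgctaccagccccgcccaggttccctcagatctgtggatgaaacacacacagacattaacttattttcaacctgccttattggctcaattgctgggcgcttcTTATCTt

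Ube2h, just outside the limit of 3, had the window above and another site 3.992 kb downstream, in its own intron, at 6.19 and 6.37. Both distal sites exceeded the enrichment of its own promoter interval (4.67 and 4.63) in both replicates. Ube2e3, also with 2 sites, had them 8.701 kb upstream (7.87 and 7.59) and 15.098 kb downstream in its own intron (10.7 and 11.3). Both were nearest to it, had a GATA match in both replicates and exceeded its promoter (5.78 and 5.45). Ube2c and Ube2h each had 2 GATA matches in the window shown, and Ube2l6, Ube2o and Ube2r2 had 1. Ube2l6 had 7 sites, of which 4 had a GATA match and 2, at 5.492 kb upstream (6.45 and 6.15) and 1.687 kb downstream (4.03 and 4.37), were nearest to it. The other 5 were nearer to Gm19426, Serping1, Smtnl1, Timm10 or Slc43a1. Ube2r2 combined the weakest open promoter with 3 distal sites that all had a GATA match at the summit of replicate 1, at 48.151 kb upstream (7.04 and 6.39), 5.749 kb upstream (4.86 and 5.41) and 25.651 kb downstream (5.76 and 6.13). At the summit of replicate 2 the site at 5.749 kb had none. Each of the 3 was stronger than its promoter, and the first lay nearest to the water channel gene Aqp3. Ube2v1 showed the same pairing of a weak promoter (3.46 and 3.54) with many sites, 7 in all, of which the 4 nearest to it, between 9.414 kb upstream and 26.708 kb downstream, had between 5.02 and 6.58 fold in replicate 1 and no GATA match.

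**Figure D5:**
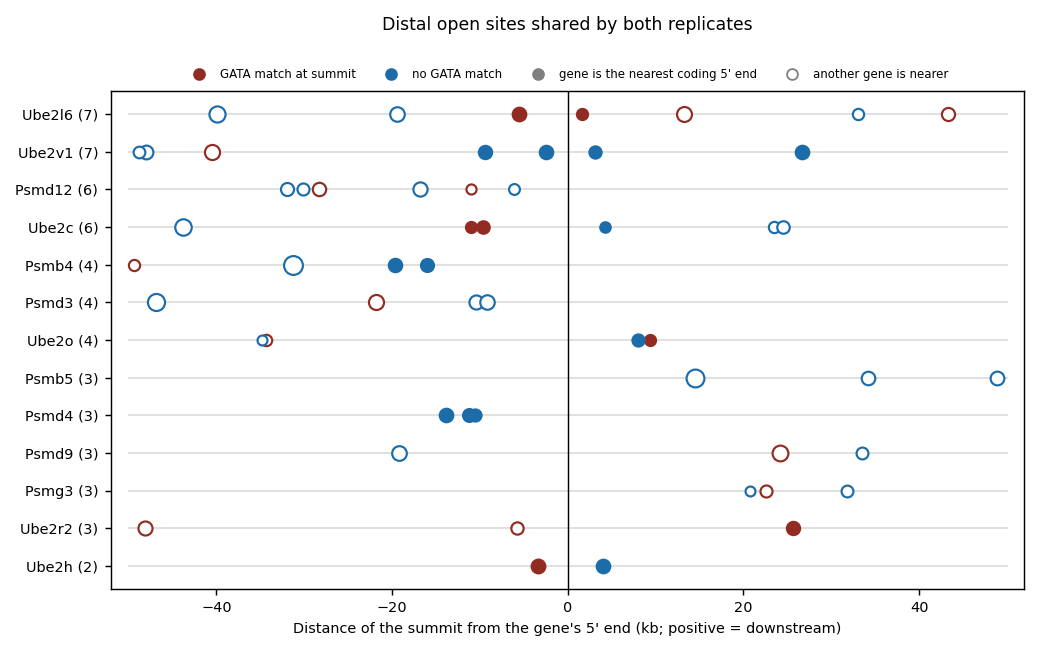
Each row is a gene with its number of distal sites, and each circle a site placed by the distance of its summit from the 5′ end in kb (positive is downstream), with a larger circle for a higher enrichment, red for a GATA match within 75 bp of the replicate 1 summit, and filled where the gene has the nearest coding 5′ end. Genes with 3 or more sites (all but 1, which is not reported here) and Ube2h with 2 are drawn, and filled red circles appear for Ube2l6, Ube2c, Ube2o, Ube2r2 and Ube2h.

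As the map of distal sites shows, the count alone says little about which gene a site belongs to. All 6 sites around Psmd12, a lid subunit, were nearer to its neighbour Pitpnc1, 5 of them in introns of that gene, and their enrichment in replicate 1 was between 3.52 and 6.83. The 4 sites of Psmd3 lay in or next to Gsdma and Gsdma3, and the 3 sites of Psmg3 lay in introns or an exon of Mafk and Tmem184a, Mafk being a small MAF protein that partners NFE2. For Psmb5 none of the 3 sites had a GATA match or was nearest to it. For Psmd9 the 3 sites were measured from an outermost start 58814 bp from its promoter interval, and 2 of them lay in its own introns. Psmd4, the ubiquitin receptor subunit, had 3 sites between 10.59 and 13.889 kb upstream that were all nearest to it, at 5.12, 5.77 and 6.45 fold in replicate 1, none with a GATA match. Psmb4, a structural beta subunit, had 4 sites, 2 of them nearest to it, with the strongest, 11.8 and 12.4 fold, nearer to Selenbp1. Ube2o had 4 sites, 2 in its own introns at 9.393 and 7.999 kb downstream and 2 in introns of Rhbdf2. Ube2c had 6, of which 3 were nearest to it.

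Among the 13 members with exactly 2 sites, the 5 with the strongest promoters were Psmc3, Ube2j2, Ube2g2, Psma3 and Ube2j1. Psmc3 had a site with a GATA match in its own intron, 6.967 kb downstream, at 7.36 and 6.91 fold, and another in an intron of Spi1. Ube2g2 and Ube2j1, both of the pathway that degrades proteins of the endoplasmic reticulum, had sites of 7.24 and 10.8 fold in replicate 1 that were nearest to them, and Ube2j2 of the same pathway had one in its own exon at 4.35 and 4.89 fold that lay nearer to C1qtnf12. Psma3 had 2 sites upstream, at 5.958 kb (6.89 and 7.19) and 4.679 kb (4.83 and 4.78), both intergenic and nearest to it. None of the sites named for Ube2j1, Ube2j2 and Psma3 had a GATA match.

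Other listed genes of the pathway were open as well. From a list of other ubiquitin and proteasome pathway genes, 45 of 45 were open (interval 92.1% to 100%), against 41.4% of all protein-coding genes. Paaf1, 1 more on the list, was not matched by symbol and was not analysed here. The list was picked by hand, with E3 genes taken for a known link to erythroid cells or to these E2 enzymes. Its share therefore does not stand for the whole pathway. The 45 comprised 4 ubiquitin genes, 9 E1 enzymes, 17 regulators and partners of the proteasome and a group of 15 listed as E3 genes. That group includes Xpo7, which is not itself a ligase. The median percentile of the 45 was 70.2, below the 74.6 of the members. It was 83.2 for the E1 enzymes, 70.2 for the regulators, 58.2 for the E3 group and 38.9 for the ubiquitin genes. Distal sites were found around 21 of them (46.7%), against 46.8% of open protein-coding genes and 30% of all, and 3 or more around 10 (22.2%), against 11.6% and 6.99%. Wdr26, a subunit of the ligase complex that works with Ube2h, had 8 sites and a promoter of 5.73 and 5.62 fold. Maea, another subunit of that complex, had 8.76 fold in replicate 1 and 15.8 in replicate 2, the pair farthest apart of the 45, and no distal site. On the less strict lists it had 15.6 and 15.8 fold, so the gap was not seen there. Trim58, a ligase of late erythroblasts, had the weakest promoter of the list at 3.95 and 3.94 fold and 3 distal sites. Nfe2l1 had 10.6 and 9.49 fold, and the E1 enzyme Uba6, the partner of Ube2z, had 14.8 and 14.1.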

How the data were processed

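The deposited files are peak lists of 2 ATAC-seq replicates of 1 group. For library preparation, aligner and peak caller, names and settings were not given in the sources used here. Per the labels, coordinates are mm10. The fold enrichment of each summit over background and its −log10 p-value were computed by the authors' peak caller and used as deposited, with the summit offset; no step that makes them comparable between lists is given, so ranks were taken within a list. Distinct intervals were kept with their strongest summit. The thresholded list of each replicate was the main input, with the longer, less strict list of each replicate and the thresholded list of both replicates as alternatives. Start sites came from GENCODE M21 and sequence from GRCm38.p6. Promoters were windows of 1 kb either side of any start. Distal sites overlapped between replicates by at least 1 bp, and their distance ran from the outermost 5′ end. Shares have 95% Wilson intervals. The values of 2 replicates are given with their SD and were not tested. Scripts ran in Python 3.11.15 with numpy 2.4.6, scipy 1.17.1 and matplotlib 3.10.9, and were tested on simulated intervals with known answers.

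The members, gene lists, motifs and cuts were chosen with earlier results of these data known. Genes named were every closed member; in each role group the 2 open members of highest and the 1 of lowest mean percentile; every member with 3 or more distal sites and the 5 strongest with 2; Psma8, Psmb8, Psmb9, Psmb10 and Psmb11; and Ube2c, Ube2h, Ube2l6, Ube2o, Ube2s and Ube2t. Other names, among them the members with both ETS and YY1 letters, further members set beside these, gene neighbours and pathway genes, were chosen after their values were seen. Lists that were ranked, replicated or conservative were not used. For 1 member that the rule names, single values are not reported here, while counts include it.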

Additional observations from a re-analysis of the deposited data

How the results depend on the processing

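The count of open members was 74 of 87 and lay between 71 and 75 under other windows, start sets and lists, against 38.4% to 46.6% of all protein-coding genes. The exception was keeping only the upper 50% of each list by enrichment, which left 52, against 30% of all protein-coding genes. Open pathway genes numbered 41 at the outermost 5′ end (against 38.4% of all protein-coding genes) and 44 with starts of protein-coding transcripts only (against 40.4%). Reading only the outermost 5′ end left 71 members by losing Psma6, Psmd5 and Psmd9, a window of 500 bp lost Ube2r2, and the less strict lists or the list made from both replicates added Ube2q2. Without copies and genes that are no subunit or enzyme, a choice made after seeing the data, 72 of 81 were open. Under the upper 50% of each list, open pathway genes numbered 28 in place of 45, members with any distal site 21 in place of 45 (against 14.3% of all genes), members with 3 or more 0 in place of 13 (against 0.346% of all genes) and distinct sites 21 in place of 99. Members with 3 or more sites numbered 6 within 25 kb (against 2.37% of all genes), 23 within 100 kb (against 17.1%) and 26 on the less strict lists (against 17%), with 61, 155 and 171 distinct sites. Leaving out 1 replicate gave 48 to 53 members with any site (against 33.6% to 35.6% of all genes), 16 to 17 with 3 or more (against 8.88% to 9.7%), 118 to 120 sites and a median percentile between 71.9 and 74.3. Ranking by significance gave a median percentile of 78.5, against 74.7 for open protein-coding genes. The share of sites with GATA letters was 49.5% over whole intervals, against 54.7% of all distal sites, and 48.5% with AGATAG and TGATAG added, against 48.4%. Calling a site distal by its summit was also chosen after seeing the data. It gave 47 members with any site (against 31.3% of all genes), 13 with 3 or more (against 7.92%) and 106 distinct sites. No paired analysis was possible because the series holds 1 group. Library depth is unknown, so a closed promoter may be one below detection, and enrichment cannot be compared between the lists as an amount.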
